A study of Mus musculus with 80 samples.

Results

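Drd1a-TdTomato cells of the dorsomedial striatum were divided into a bright and a dim group chosen by their own reporter fluorescence, and the groups were compared across genes. Members were the cells labelled Drd1 on plates FACS051_5 and FACS086_4, without well D04 of FACS051_5 and without cells with fewer than 2000 genes above 1 TPM (a transcript level scaled by gene length and to a fixed total per cell). A bright cell lay above the median 610/20 fluorescence of the members of its plate, and a dim cell at or below it. Of the 80 cells of the series, 37 were members, 18 of them bright and 19 dim. FACS051_5 held 8 bright and 9 dim cells, and FACS086_4 held 10 of each.

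Each sample was the cDNA of 1 cell, collected by FACS and read by scRNA-Seq. The series held 40 Drd1 and 40 Drd2 cells. All cells, bright, dim and Drd2 alike, came from adult mice heterozygous for both transgenes, Drd1a-TdTomato and Drd2-EGFP, with no further treatment compared, and the study's methods describe double-transgenic females injected with India ink and the dye Hoechst to mark the dorsomedial striatum before dissection and papain digestion. Both reporters are bacterial artificial chromosome transgenes, so TdTomato is made from an extra copy of Drd1a regulatory DNA and not from the Drd1 locus itself. The methods also state that the TdTomato and propidium iodide signals overlapped in part in the filters used and were gated against each other. The labels name no animal. Each group on each plate was therefore 1 sample of cells, no test was made, and every value below is a description of these cells with no p-value. The plates were kept apart, so that each comparison was made once on each.

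Drd1 encodes the D1 dopamine receptor, which in D1 MSN (medium spiny neurons) stimulates adenylyl cyclase through the olfactory G protein and so raises cyclic AMP. D1 MSN send the direct pathway of the basal ganglia and carry dynorphin and substance P, whereas D2 MSN send the indirect pathway and carry enkephalin. A fluorescent reporter protein such as TdTomato accumulates over time and is usually far more stable than the mRNA it is translated from, while the mRNA in a cell is measured at 1 moment.

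On FACS051_5, the fluorescence of bright cells ran from 2319 to 2726 arbitrary units with a median of 2419, and that of dim cells from 1185 to 2231 with a median of 1687. On FACS086_4, bright cells ran from 3522 to 4451 with a median of 3894, and dim cells from 2487 to 3343 with a median of 3055. These values made the groups and are no finding. Every dim cell of FACS086_4 was brighter than the median bright cell of FACS051_5, and "bright" and "dim" therefore refer to a plate. The ratio of the group medians was 1.43 on FACS051_5 and 1.27 on FACS086_4, and the brightest member exceeded the dimmest by 2.30-fold and 1.79-fold. The contrast was thus between neighbouring levels of 1 labelled population, since Drd2 cells reached at most 261 in this channel. The cells next to the dividing line were well B11 (2319, bright, Drd1 351 TPM, 5824 genes) and well D01 (2231, dim, Drd1 79.98 TPM, 6154 genes) on FACS051_5. On FACS086_4 they were well D04 (3522, bright, Drd1 154 TPM, 8090 genes) and well B06 (3343, dim, Drd1 168 TPM, 5256 genes).

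Most members matched their Drd1 label in the RNA, and some cells of FACS051_5 stood apart. Drd1 stood above 1 TPM in 36 of 37 members and was listed at 0 in the dim well B07 of FACS051_5, where the 15 D1 MSN markers together still reached 1512 TPM. The bright well B12 of that plate had 4.02 TPM of Drd1, close to the 4.05 TPM that was the highest level in a Drd2 cell of the same plate. Drd2 itself, the D2 dopamine receptor, was above 1 TPM in 2 members and Adora2a, the adenosine receptor typical of D2 MSN, in 1 member. Penk, which encodes enkephalin, was above 1 TPM in all 37 members but reached 499.8 and 3676 TPM in 2 dim cells of FACS051_5, the higher being well C06, where the D2 markers together reached 3713 TPM and the D1 markers 1783 TPM, and at most 63.9 TPM in the others. Markers of other cell types were low in most members of both groups. The summed level of the 10 astrocyte markers ran from 0.39 to 30.6 TPM in bright cells of FACS051_5 with a median of 9.63, and from 4.07 to 264 TPM in dim cells with a median of 11.51. The highest was in well A04, where the D2 markers together reached 501 TPM and the D1 markers 9881 TPM. On FACS086_4 the astrocyte sum ran from 0 to 20.3 TPM with a median of 11.4 in bright cells and from 2.80 to 14.9 TPM with a median of 8.85 in dim cells. The interneuron list stayed at 14.7 TPM or below in every member. The summed oligodendrocyte markers ran from 0.0846 to 71.4 TPM in bright and from 0 to 35.3 TPM in dim cells of FACS051_5. On FACS086_4 they ran from 0.61 to 197 TPM in bright cells, with a median of 33.9, and from 0 to 73.4 TPM in dim cells, with a median of 4.18. The endothelial list ran from 10.8 to 318 TPM over the members, of which Pecam1, a cell adhesion molecule, was above 1 TPM in all 37, the microglia list from 0 to 271 TPM with a median of 0.45, and the list of cortical excitatory neurons from 0 to 148 TPM with a median of 1.74. Of the 7 oligodendrocyte markers, 1 (Olig1) was at 0 in all members, and 6 exceeded 1 TPM in at least 1 member. Of the 10 astrocyte markers, 1 (Gjb6) was at 0 in all members, and 7 exceeded 1 TPM in at least 1 member. The part of these markers in the differences given below was not tested.

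Drd1 mRNA hardly followed the fluorescence of the reporter. On FACS051_5, Drd1 (chromosome 13, 54051183 to 54055705, GRCm38) ran from 4.02 to 501 TPM in bright cells with a median of 228, and from 0 to 370 TPM in dim cells with a median of 228. Bright cells of FACS086_4 ran from 120 to 275 TPM with a median of 180, and dim cells from 53.7 to 340 TPM with a median of 169. The groups overlapped on both plates, and the highest Drd1 level of FACS086_4 was found in a dim cell. Of the bright cells, 4 of 8 on FACS051_5 and 6 of 10 on FACS086_4 lay above the dim median of their plate.

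The log2 fold of the group means, taken as log2 of mean TPM plus 1 in bright over dim cells, was 0.30 on FACS051_5 and 0.08 on FACS086_4. The mean of both plates was 0.19, with an SD over plates of 0.15. The difference of the mean of log2(TPM + 1) was 0.48 and 0.32, since this mean gives more weight to the low cells. The group means, 255 and 208 TPM on FACS051_5 and 191 and 181 TPM on FACS086_4, differed by less than the spread between cells of a group (SD 174 and 131 TPM on FACS051_5, 58.3 and 111 TPM on FACS086_4, bright and dim). The median of that difference over all 7741 genes was 0.54 and 0.05, and relative to it Drd1 stood at -0.05 on FACS051_5 and 0.27 on FACS086_4, so that its direction on FACS051_5 turned. Across cells, Spearman's rho between Drd1 and fluorescence was 0.14 over the 17 cells of FACS051_5 and 0.17 over the 20 cells of FACS086_4 (Pearson's r 0.21 and 0.11). Cells of a plate share the sort and perhaps the animal, so these are descriptions. Leaving out well B12 of FACS051_5, the bright cell with least Drd1, and well A01 of FACS086_4 raised the mean fold to 0.34, a choice made after seeing the data.

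**Figure D1:**
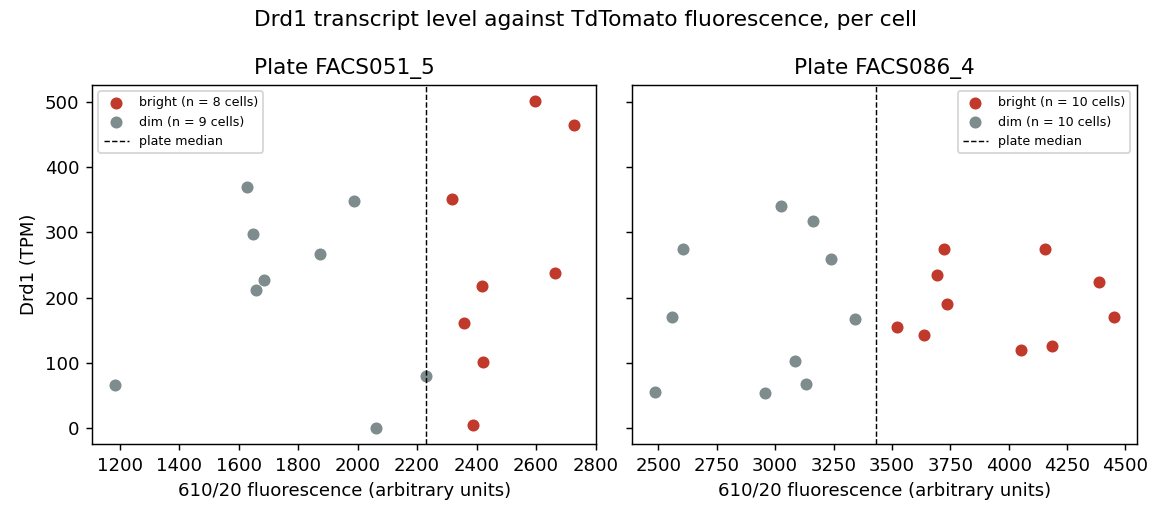
Drd1 level in TPM (vertical axis) against 610/20 fluorescence in arbitrary units (horizontal axis) for each compared cell, with the plates side by side and the plate median as a dashed line. Bright and dim cells covered overlapping ranges of Drd1 on both plates, from 4.02 to 501 against 0 to 370 TPM on FACS051_5 and from 120 to 275 against 53.7 to 340 TPM on FACS086_4.

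More genes were found in bright cells on FACS051_5, but less clearly on FACS086_4. The number of genes above 1 TPM per cell ran from 3825 to 8657 in bright cells of FACS051_5 with a median of 6389.5, and from 2829 to 6896 in dim cells with a median of 4687. On FACS086_4 it ran from 3492 to 8549 in bright cells with a median of 6072.5, and from 2806 to 7390 in dim cells with a median of 5766. The medians differed by 1702.5 genes on FACS051_5 and by 306.5 on FACS086_4, and the ranges overlapped on each plate. On FACS051_5, 7 of 8 bright cells lay above the dim median, against 5 of 10 on FACS086_4. The mean difference of 1004.5 genes was about as large as its SD over plates, 987.

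The relation across cells differed in the same way. Spearman's rho between genes found and fluorescence was 0.73 over the 17 cells of FACS051_5 (Pearson's r 0.73, and 0.71 without the 2 cells farthest from the median fluorescence). Over the 20 cells of FACS086_4, rho was 0.20 and r 0.16, falling to 0.02 without the 2 farthest cells. The members were already restricted to cells with at least 2000 genes, so the lower end of this measure was set in part by the rule. Drd1 itself went with the genes found on FACS051_5 (rho 0.48) and not on FACS086_4 (rho -0.11). Without the 2 cells farthest from the median number of genes found, these rho values were 0.275 and 0.03. The part of genes found in the Drd1 values was not tested.

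The same difference appeared gene by gene. On FACS051_5, the median of the 7741 genes that averaged 10 TPM or more in the members was above 1 TPM in 50.0% of bright and 33.3% of dim cells, and 71.0% of the genes were found in a larger share of bright cells. On FACS086_4 the median share was 50.0% in both groups, and 42.4% of genes had the larger share in bright and 33.0% in dim cells. TPM values are scaled within a cell and carry no depth, so reads per cell could not be compared. The listed genes summed to between 675682 and 958040 TPM in the members, and rho of this sum with fluorescence was -0.61 on FACS051_5 and 0.01 on FACS086_4. The mitochondrially encoded genes took a median share of the listed TPM of 11.4% (bright) and 10.96% (dim) on FACS051_5 and of 8.37% and 8.13% on FACS086_4. The highest share was 14.5% in bright and 29.9% in dim cells of FACS051_5, and 12.8% and 16.5% on FACS086_4. The dim wells A05 and C04 of FACS051_5 had 29.9% and 24.4% with 2829 and 2971 genes found. Across cells, Spearman's rho between this share and the genes found was -0.28 on FACS051_5 and -0.58 on FACS086_4 (Pearson's r -0.48 and -0.67). Without the 2 cells farthest from the median number of genes found, rho was 0.02 and -0.45 (r -0.21 and -0.47). The part of RNA quality in the difference in genes found was not tested.

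The green channel, which registers EGFP, was slightly higher in bright cells. The 525/50 fluorescence ran from 24 to 95 in bright and from 17 to 51 in dim cells of FACS051_5, with medians of 38 and 26. On FACS086_4 it ran from 38 to 148 in bright and from 37 to 112 in dim cells, with medians of 66 and 61.5. The groups overlapped, the medians differed by 12 and 4.5 units, and every member stayed far below the Drd2 cells of the same plates, whose lowest values were 502 and 615. The Spearman correlation with the TdTomato channel was 0.28 and 0.17.

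**Figure D2:**
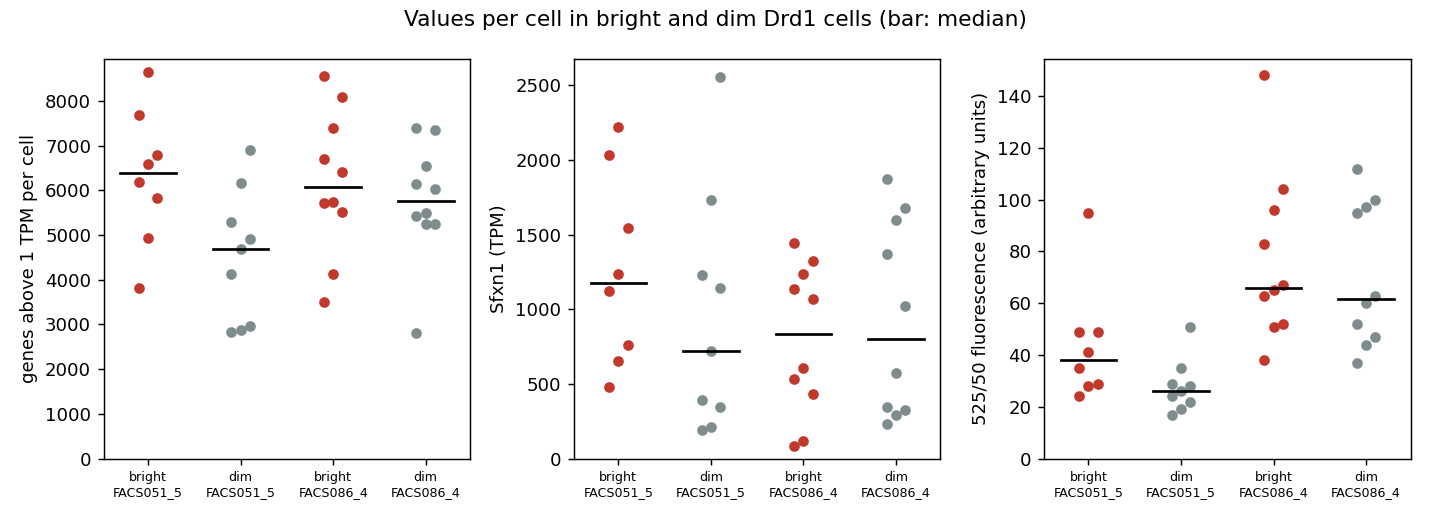
Genes above 1 TPM, Sfxn1 in TPM and 525/50 fluorescence in arbitrary units for each compared cell, by group and plate, with the median of each group as a bar. The median number of genes was 1702.5 higher in bright than in dim cells on FACS051_5 and 306.5 higher on FACS086_4, and all groups overlapped in all 3 measures.

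Genes beside Drd1 on chromosome 13 did not share a direction. Sfxn1 (54071869 to 54108342), which encodes a mitochondrial serine transporter and lies close to Drd1, ran from 481 to 2221 TPM in bright and from 193 to 2557 TPM in dim cells of FACS051_5, with medians of 1178 and 719. The other plate had ranges of 84.9 to 1443 TPM in bright and of 229 to 1875 TPM in dim cells, with medians of 837 and 800. The log2 fold of the means was 0.41 on FACS051_5 and -0.22 on FACS086_4, and the groups overlapped on both plates. The Spearman correlation of Sfxn1 was 0.39 and 0.04 with fluorescence, and 0.60 and 0.49 with the genes found. Cplx2, which encodes the synaptic protein complexin 2, had folds of 0.45 and 0.14. Thoc3, a subunit of the THO complex of mRNA export, had folds of -4.33 and -1.81, but it was above 1 TPM in 10 of the 37 members and its median was 0 in all 4 groups. These folds therefore came from a few dim cells, the highest at 301 TPM on FACS051_5 and at 125 TPM on FACS086_4.

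The other markers of D1 MSN gave no common direction either. Of 15 listed markers, Drd1 and Sfxn1 among them, 12 averaged 10 TPM or more, and their median fold was -0.05 on FACS051_5 and 0.06 on FACS086_4, against 0 and -0.02 for all 7741 genes. With a call defined as a log2 fold of at least 1 in the same direction on both plates, 0 of the 12 were higher in bright cells and 1 was lower. Over all genes tested, 6.72% were called higher and 6.32% lower. Chrm4, the muscarinic M4 receptor, was listed at 0 in every member and could not be compared. The paper reports Chrm4 as specific to D1 MSN. The paper also places most of its reads in an untranslated end region that the RefSeq annotation holds and the Ensembl one lacks. The listed 0 therefore need not mean that the transcript was absent, and the part of the annotation was not tested. The marker called lower was Lingo2, a leucine-rich repeat membrane protein, with folds of -1.16 and -1.51, found above 1 TPM in 16 of 37 members. Its medians were 1.61 TPM (bright) and 0.85 TPM (dim) on FACS051_5, the other way round from the means, and 0 and 18.2 TPM on FACS086_4.

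Pdyn, which encodes prodynorphin, was opposed between the plates. It ran from 0 to 198 TPM in bright cells of FACS051_5 with a median of 0, and from 0 to 663 TPM in dim cells with a median of 240. On FACS086_4, it ran from 0 to 750 TPM in bright cells with a median of 150, and from 0 to 475 TPM in dim cells with a median of 8.89. Cells above 1 TPM made up 2 of 8 bright and 6 of 9 dim cells on FACS051_5, and 8 of 10 bright and 5 of 10 dim cells on FACS086_4. The folds were -2.85 and 1.15. The labels do not say whether the plates hold different animals, and the difference between the plates was not tested.

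Tac1, the precursor of substance P and the most abundant D1 marker, was above 1 TPM in all 37 members. In bright cells of FACS051_5 it ran from 239.7 to 3511 TPM with a median of 907, and in dim cells from 2.10 to 7398 TPM with a median of 780. Bright cells of FACS086_4 had 163 to 2392 TPM with a median of 1066, and dim cells 434 to 6800 TPM with a median of 1358. The folds of -0.91 and -0.46 were both below 0, with the highest cell of each plate in the dim group, whereas the differences of mean log2 values were 0.36 and -0.27. Ebf1, a transcription factor of direct pathway development, had folds of 0.54 and 0.49, and its median was higher in bright cells on both plates (3.58 against 0.61 TPM, and 34.8 against 18.9 TPM). Isl1, another transcription factor of these neurons, had folds of 0.84 and -1.41. Slc35d3, a nucleotide sugar transporter of D1 MSN, had folds of -1.78 and 0.03.

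Of the remaining D1 markers tested, Cpeb1, a regulator of mRNA translation, had folds of 0.35 and 0.66, and Dgkz, a diacylglycerol kinase, of -0.40 and -1.82. Their directions depended on the processing: as differences of mean log2 values Cpeb1 stood at 1.99 and -0.20 and Dgkz at 0.56 on FACS051_5, and without the 2 cells on either side of the plate median the mean fold of Cpeb1 was -1.59. Fxyd7, a regulator of the sodium pump, had folds of -1.96 and 0.28. Ddit4l, an inhibitor of mTOR signalling, was listed at 0 in all dim cells of FACS051_5, where bright cells reached 56.1 TPM, and its fold on FACS086_4 was 0.48. The D1 markers thus divided by plate and by gene, and the 15 together summed to medians of 2944 TPM (bright) and 4304 TPM (dim) on FACS051_5, and of 2661 and 3110 TPM on FACS086_4, with overlapping groups.

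The signalling genes downstream of the receptor had median folds near 0, as all 7741 genes had (0 and -0.02). The D1 signalling list held 36 genes tested, with median folds of 0.27 and -0.09, 1 called higher (2.78%) and 0 called lower. Over all genes, 6.72% were called higher and 6.32% lower, but of the 1155 genes that averaged 100 TPM or more, 1.21% and 2.08%. Gnal, which encodes the olfactory G protein alpha subunit, had folds of 0.26 and 0.14, and Adcy5, the main striatal adenylyl cyclase, of 0.80 and 0.46. The bright and dim medians of Adcy5 were 133 and 56.0 TPM on FACS051_5, and 61.8 and 56.8 TPM on FACS086_4. Ppp1r1b, which encodes DARPP-32, the phosphatase inhibitor phosphorylated by protein kinase A, had folds of 0.28 and -0.02. It ran from 518 to 3334 TPM in bright and from 502 to 3199 TPM in dim cells of FACS051_5, and from 149.9 to 3129 TPM in bright and from 631 to 2620 TPM in dim cells of FACS086_4. The called gene was Creb1, the transcription factor that binds cyclic AMP response elements, with folds of 3.57 and 1.91. It was above 1 TPM in 13 of 37 members, with a bright median of 32.3 TPM on FACS051_5 and of 0.53 TPM on FACS086_4 and a dim median of 0 on both. Of 29 genes typical of striatal projection neurons, 0 were called in either direction, to be read beside the same shares, with median folds of 0.31 and -0.14. The most abundant of them, Pcp4, a calmodulin-binding peptide, had folds of 0.44 and -0.39.

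Across all genes, the folds of the plates showed no relation to each other. A log2 fold of at least 1 was reached by 2070 of the 7741 genes (26.7%) upward and 1939 (25.0%) downward on FACS051_5, and by 1736 (22.4%) and 1773 (22.9%) on FACS086_4. On both plates, 520 genes were higher (6.72%) and 489 lower (6.32%) in bright cells, so that 1009 genes (13.0%) passed in the same direction. A further 1042 genes (13.5%) passed on both plates in opposite directions. Pearson's r between the folds of the plates was 0.0033 over 7741 genes, Spearman's rho was 0.0082, and 49.1% of the genes had the same sign. Genes are not independent replicates, and no cell was shared by both plates.

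The balance of higher and lower genes depended on how the cells were averaged. With the difference of the mean of log2(TPM + 1), the median over all genes was 0.54 on FACS051_5 and 0.05 on FACS086_4, and 580 genes (7.49%) were higher, 132 (1.71%) lower and 633 (8.18%) opposite. With that median subtracted on each plate, which was added after seeing the data, 334 genes (4.31%) were higher, 256 (3.31%) lower and 609 (7.87%) opposite. Genes in the same direction thus numbered 1009, 712 and 590 under these definitions, and opposite genes 1042, 633 and 609.

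Abundant genes varied less. Of the 1155 genes that averaged 100 TPM or more, a subset chosen after seeing the data, 14 were higher (1.21%), 24 lower (2.08%) and 30 opposite (2.6%), and r was 0.0983. Their median folds were -0.27 and -0.13. Among the 3539 genes above 1 TPM in at least 50% of the members, 116 were higher (3.28%), 105 lower (2.97%) and 218 opposite (6.16%). As a yardstick added after seeing the data, the members were set against 34 Drd2 cells of the same plates by the same rule. In 7737 genes, 360 were higher in Drd1 cells (4.65%), 309 lower (3.99%) and 598 opposite (7.73%), and r between the plates was 0.0622. Genes past the fold in the same direction made up 8.65% of the genes in that comparison, which had larger groups, and 13.0% between bright and dim cells.

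**Figure D3:**
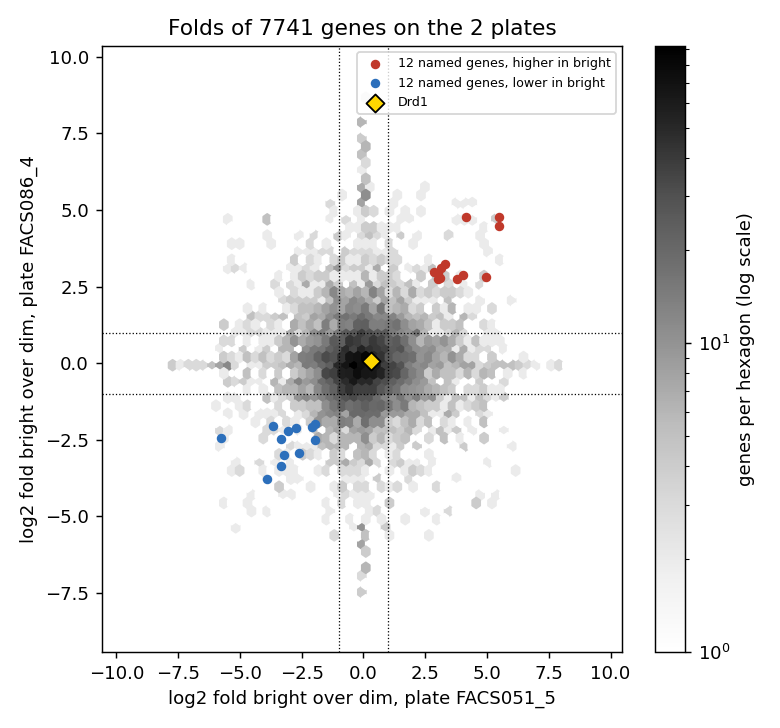
Log2 fold of bright over dim cells for 7741 genes, with FACS051_5 on the horizontal and FACS086_4 on the vertical axis, shaded by the number of genes in each hexagon on a log scale, with dotted lines at folds of 1 and -1. The cloud is centred near 0 with no slope (r 0.0033), Drd1 lies near its centre, and the 24 named genes were taken from the upper right and lower left corners.

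The genes named here were those with the largest folds by the lesser plate among 182 higher and 83 lower genes that also had the same direction in the mean of log2 values and exceeded 1 TPM in 50% or more of the higher group on each plate. The folds chose them, so they are given as a description. Mdm4 (chromosome 1, 132959484 to 133030561), which encodes an inhibitor of p53, led the higher genes with folds of 5.47 and 4.76. It ran from 0 to 357 TPM in bright cells of FACS051_5 with a median of 17.1 and from 0 to 4.37 TPM in dim cells with a median of 0, and on FACS086_4 from 0 to 329 TPM with a median of 127 against 0 to 27.1 TPM with a median of 1.42. Bright cells at 0 remained on both plates, so the groups overlapped. Orc2, a subunit of the origin recognition complex, had folds of 4.14 and 4.77, and Ift88, a protein of transport within cilia, of 5.50 and 4.49. Ift88 ran from 0 to 157 TPM in bright cells of FACS051_5 and from 0 to 190 TPM in those of FACS086_4, against at most 0.26 and 13.997 TPM in dim cells.

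The other higher genes belonged to no list fixed for this comparison. Traip, a ubiquitin ligase of the replication fork, had folds of 3.30 and 3.25, and Zcchc7, a zinc finger protein of nuclear RNA turnover, of 3.14 and 3.10. Pcgf2, a Polycomb group protein, had folds of 2.83 and 2.98, and Ube2d1, a ubiquitin-conjugating enzyme, of 3.80 and 2.76. Fut8, the enzyme that adds core fucose to glycoproteins, had folds of 3.01 and 2.74. Mirg, a noncoding RNA of the imprinted Dlk1-Dio3 region, had folds of 4.02 and 2.87, with bright medians of 66.7 and 77.4 TPM and dim medians of 0 and 1.95 TPM. Minpp1, an inositol polyphosphate phosphatase, was listed at 0 in all dim cells of FACS051_5 and had a bright median of 35.0 TPM there, and its fold on FACS086_4 was 2.80. A830039N20Rik had folds of 3.08 and 2.76. 5730480H06Rik (chromosome 5, 48327952 to 48414294) had folds of 3.003 and 2.96, and it overlaps Kcnip4 (48389502 to 49524907), which encodes a potassium channel interacting protein and had folds of 1.94 and 1.22. The strand setting of the counting is not given in the sources used here, so reads of these 2 genes may not be separable.

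The lower genes included several of the same sparse kind, whereas Hnrnpa1, given below, was found more widely. Emsy (chromosome 7, 98587137 to 98656783), a chromatin protein that binds BRCA2, led them with folds of -3.89 and -3.80. It ran from 0.22 to 24.6 TPM in bright cells of FACS051_5 and from 0 to 918 TPM in dim cells, with medians of 1.64 and 2.15, and on FACS086_4 from 0 to 12.9 TPM in bright and from 0 to 225 TPM in dim cells, with medians of 2.26 and 26.4. The medians on FACS051_5 were almost the same and the fold rested on a few dim cells. Serpini1, which encodes neuroserpin, had folds of -3.35 and -3.37 and was above 1 TPM in 13 of 37 members. Lypd1, a modulator of nicotinic receptors that was also on the striosome list, had folds of -3.20 and -2.99, with dim medians of 18.3 and 1.31 TPM and bright medians of 0.47 and 0.35 TPM.

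Tomm22, a receptor of mitochondrial protein import, had folds of -2.61 and -2.92, with dim medians of 193 and 15.1 TPM against bright medians of 1.08 and 0 TPM. Dync2li1, a light intermediate chain of the dynein of cilia, had folds of -5.75 and -2.44. Rnf4, a ubiquitin ligase that recognises SUMO chains, had folds of -3.34 and -2.49, although its median on FACS086_4 was higher in bright (4.42 TPM) than in dim cells (0.62 TPM). Usp3, a deubiquitinase of histones, had folds of -3.06 and -2.22, and Gnb4, a G protein beta subunit, of -3.65 and -2.05. Cux1, a homeodomain transcription factor, had folds of -2.07 and -2.08. Med19, a subunit of Mediator, had folds of -1.98 and -2.49. Hnrnpa1, an RNA-binding protein of splicing, had folds of -1.98 and -1.98, with bright and dim medians of 41.8 and 19.5 TPM on FACS051_5 and of 18.3 and 95.0 TPM on FACS086_4. Gm5641, annotated as a pseudogene, had folds of -2.72 and -2.11, and is uncertain because reads of a parent gene can fall on a pseudogene.

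**Figure D4:**
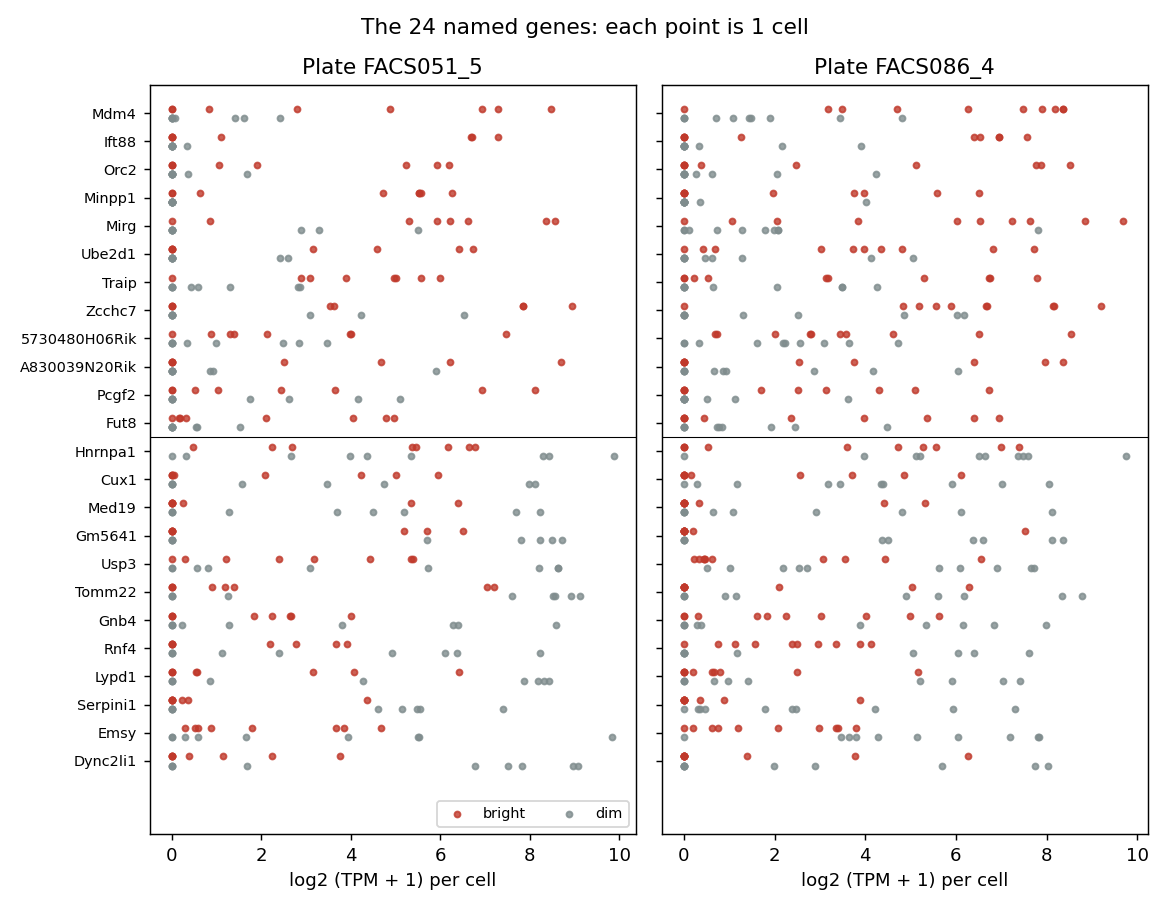
Level of each of the 24 named genes in each cell as log2 of TPM plus 1, with bright and dim cells as points and the plates side by side. The 12 genes above the line were higher and the 12 below it lower in bright cells on both plates, and cells at or near 0 occur in both groups for most of these genes.

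A complete separation of the groups was rare. All bright cells lay above all dim cells for 2 of 7741 genes on FACS051_5 (0.0258%) and for 0 (0.0%) on FACS086_4, and all bright cells lay below all dim cells for 0 genes (0.0%) on either plate. The 2 genes, named after their values were seen, were Atf4 and Fam91a1. Atf4, a transcription factor of the integrated stress response, ran from 12.7 to 229 TPM in bright cells of FACS051_5 with a median of 47.5, and from 0 to 4.01 TPM in dim cells with a median of 0. On FACS086_4 it ran from 0 to 116 TPM in bright cells with a median of 0, and from 0 to 53.7 TPM in dim cells with a median of 2.03, so that neither separation nor order recurred. Fam91a1, a protein of vesicle trafficking, ran from 0.069 to 5.75 TPM in bright cells of FACS051_5 and was listed at 0 in all dim cells there. On FACS086_4 its medians were 9.05 TPM in bright and 5.54 TPM in dim cells, and the groups overlapped.

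The genes closest to the fluorescence from cell to cell were picked by that measure, so their lead over Drd1 was set by the choice. Among the 3539 genes above 1 TPM in at least 50% of the members, 442 had a rho with fluorescence of at least 0.5 on FACS051_5, where the median rho of all was 0.19, and 39 did on FACS086_4, where the median was 0.00. At least 0.5 was reached on both plates by 7 genes, and 0 genes were at or below -0.5 on both. Over the 3539 genes, Pearson's r between the rho values of the plates was 0.08. The 5 highest by the lesser plate were Zdhhc20, a palmitoyl transferase (0.68 and 0.66), Add2, which encodes the membrane skeleton protein beta-adducin (0.77 and 0.58), Kpna6, a nuclear import receptor (0.55 and 0.57), Rnf6, a ubiquitin ligase (0.57 and 0.52), and Gm44709 (0.70 and 0.52). Add2 was the most widely found of these, above 1 TPM in 31 of 37 members. Its medians were 90.05 TPM in bright and 10.4 TPM in dim cells of FACS051_5, and 68.7 and 17.0 TPM on FACS086_4, and the groups overlapped.

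In the other direction, the 5 genes, each found above 1 TPM in at least 29 members, were Cox7a2, a subunit of cytochrome c oxidase (-0.51 and -0.47), Tuba1a, an alpha-tubulin (-0.52 and -0.44), Ptma, prothymosin alpha (-0.42 and -0.44), Hmgb1, a chromatin protein (-0.48 and -0.40), and Spcs1, a subunit of the signal peptidase (-0.62 and -0.39). Cox7a2 was above 1 TPM in all members, with medians of 107 TPM in bright and 354 TPM in dim cells of FACS051_5, and of 202 and 322 TPM on FACS086_4. Tuba1a had medians of 189.6 and 369.9 TPM on FACS051_5, and of 309 and 533 TPM on FACS086_4. The rho values chose these 10 genes from 3539 and are a description over 17 and 20 cells. Their relation to the genes found per cell was not tested.

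Several lists with at least 3 genes tested had median folds below 0 on both plates, as did the 1155 abundant genes (-0.27 and -0.13). These lists were those of oxidative phosphorylation, ribosomal protein, chaperone, mitochondrially encoded, glycolytic, proteasome, synaptic vesicle, and tubulin and motor genes. Of 78 nuclear genes of oxidative phosphorylation, 0 were called in either direction, and their median folds were -0.38 and -0.19. On both plates, 39 of them (50.0%) were below 0 and 2 above, against 25.5% below and 23.6% above for all 7741 genes, and 37.4% below and 15.8% above for the 1155 abundant genes. The list summed to between 16544 and 39258 TPM in bright cells of FACS051_5 (median 28515) and to between 17923 and 43589 TPM in dim cells (median 36316). On FACS086_4, the sum ran from 10356 to 38750 TPM in bright cells (median 30650) and from 16660 to 37662 TPM in dim cells (median 33486). The groups overlapped, with 1 of 8 and 2 of 10 bright cells above the dim median of their plate. Examples were Atp5b, a subunit of ATP synthase (-0.52 and -0.73), and Cox6a1, of cytochrome c oxidase (-1.10 and -0.55).

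The 76 cytosolic ribosomal protein genes had median folds of -0.44 and -0.16, with 0 called and 45 (59.2%) below 0 on both plates. Their sum had medians of 17508 (bright) and 20874 TPM (dim) on FACS051_5, and of 17432 and 17457 TPM on FACS086_4. The 34 chaperone genes had median folds of -0.55 and -0.26, with 0 called and 13 (38.2%) below 0 on both plates, a share near the 37.4% of the abundant genes, and Hspa8, a constitutive heat shock protein, had folds of -0.53 and 0.15. On FACS051_5 the direction depended on the average for most of the lists below 0. The medians by the mean of log2 values were 0.09 for chaperones, 0.0047 for ribosomal proteins and -0.06 for oxidative phosphorylation. They were 0.89 for proteasome, 0.80 for synaptic vesicle, 0.78 for tubulin and motor, 0.35 for glycolytic and -0.36 for mitochondrially encoded genes. All genes stood at 0.54 and the abundant genes at 0.37 by this measure. On FACS086_4 the proteasome median also turned, to 0.04. The 13 mitochondrially encoded genes had median folds of -0.48 and -0.04 and 0 calls, with 7 (53.8%) below 0 on both plates. Of 31 proteasome subunits, 0 were called higher and Psma5 lower (-2.46 and -1.32). The 28 translation factors had median folds of -0.24 and 0.15. Among them, Pabpc1, the poly(A)-binding protein, was called higher (1.57 and 2.06) and Eif1b (-2.29 and -1.87) and Eif2s1 (-1.33 and -1.31) lower. Pfkl, a phosphofructokinase, was the 1 call among 15 glycolytic enzymes, lower in bright cells (-1.88 and -1.21). These counts were read against the 6.72% of all genes called higher and the 6.32% called lower. Of the 1155 abundant genes, 1.21% were called higher and 2.08% lower. The 25 tubulin and motor genes had median folds of -0.04 and -0.37, with 0 called and 12 (48%) below 0 on both plates.

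Receptor, channel and early response genes had median folds of the means above 0 on FACS051_5 and near 0 on FACS086_4. With the mean of log2(TPM + 1), the medians on FACS086_4 were -0.14, 0.41 and -0.59 in that order, against 0.05 for all genes. The 23 glutamate and GABA receptor genes had median folds of 0.81 and -0.09, and the 29 ion channel genes of 0.60 and 0.00. The receptors held 0 calls, and the channels held Kcnip4 and Cacna1a, the pore of P/Q-type calcium channels (3.21 and 1.45), called higher. That is 6.90% of the channels, near the 6.72% of all genes. The 17 early response genes, which neurons induce with activity, had median folds of 1.41 and -0.06. Npas4, an activity-dependent transcription factor, was called higher (2.95 and 1.51) and Ier5 lower (-1.05 and -2.10), 5.88% of the list in each direction, and the Ier5 value on FACS051_5 was 0.95 as a difference of mean log2 values. Of 29 synaptic vesicle genes, Bsn, which encodes the active zone protein Bassoon, was called higher (2.62 and 1.02) and Rab3b, a small GTPase of exocytosis, lower (-5.07 and -1.15). That is 3.45% of the list in each direction, against 6.72% and 6.32% of all genes. Grin2b, a subunit of the NMDA receptor, had folds of 1.36 and 0.41. FACS051_5, where these medians of the fold of means stood above 0, was also the plate on which bright cells had 1702.5 more genes found. The part of the genes found in these medians was not tested.

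Genes of the striatal compartments stood far from 0 on FACS051_5. Matrix and striosomes are intermingled territories of the striatum with different inputs and markers. On FACS051_5, the 8 matrix genes had a median fold of 1.69 and the 6 striosome genes of -3.03, and on FACS086_4 they had medians of -0.25 and 0.34. The direction on FACS086_4 depended on the average, because with the mean of log2(TPM + 1) the medians were 2.497 and 0.50 for matrix genes and -2.40 and -0.45 for striosome genes, in the same direction on both plates, against 0.54 and 0.05 for all genes. The summed matrix genes of FACS051_5 lay above the dim median in 8 of 8 bright cells, against 1 of 10 on FACS086_4, and the groups overlapped on both plates. Calb1, the calcium-binding protein of the matrix, had folds of 1.51 and -0.14, and Rasgrp2, an exchange factor for Rap1, of 2.09 and -0.24, the latter 1.42 as a difference of mean log2 values. Pdyn, described above, was among the striosome genes, and Lypd1 was their 1 call. That is 16.7% of the 6 striosome genes called lower, a share of 1 gene, against 6.32% of all genes. Of the 8 matrix genes, 0 were called in either direction, against 6.72% higher and 6.32% lower for all genes. These lists are short, and the difference between the plates was not tested. A median past 1 or -1 on both plates was reached by 0 lists.

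**Figure D5:**
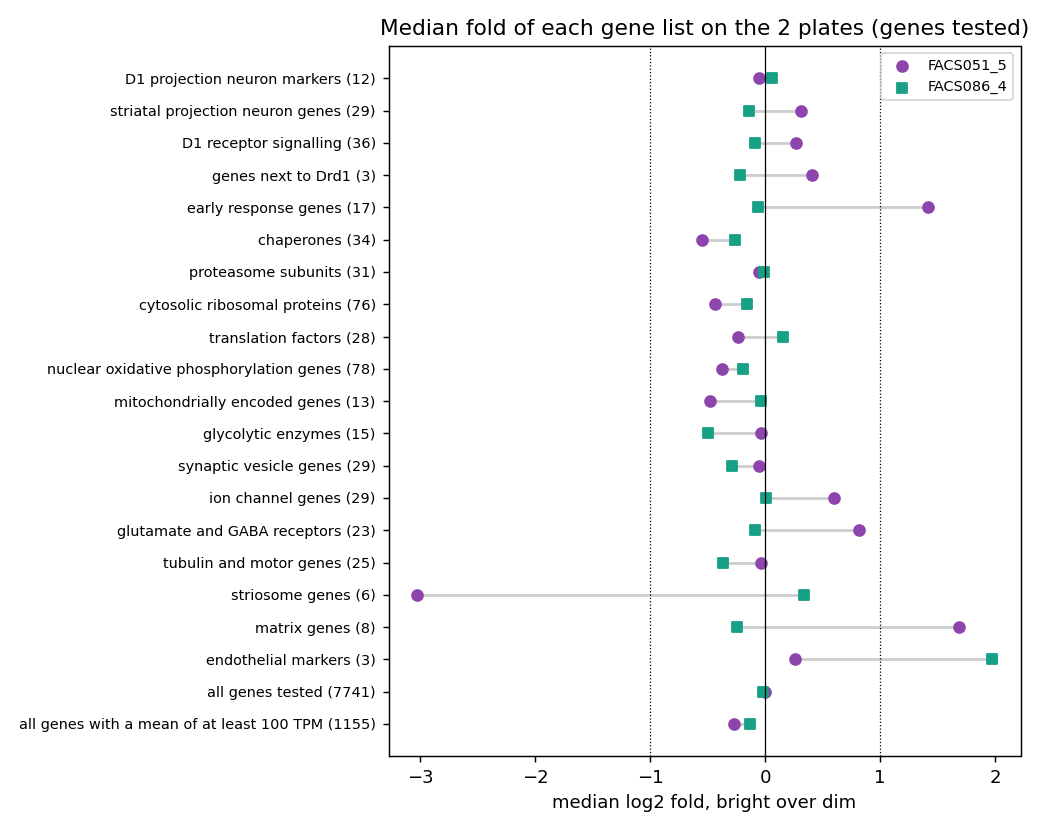
Median log2 fold of bright over dim cells for each list with at least 3 genes tested (number in parentheses), for FACS051_5 as circles and FACS086_4 as squares, with dotted lines at 1 and -1. Several lists, those of oxidative phosphorylation, ribosomal protein and chaperone genes among them, lie below 0 on both plates by at most 0.55. Matrix and striosome genes lie at 1.69 and -3.03 on FACS051_5. On FACS086_4 they lie at -0.25 and 0.34, where the mean of log2 values gives 0.50 and -0.45.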

How the data were processed

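The authors deposited 1 table of TPM for 25160 genes and 80 cells. Per the submitters' processing notes and the study's methods, reads were demultiplexed with bcl2fastq 2.18, checked with FastQC 0.11.5, aligned with STAR 2.5.0 to mm10/GRCm38 with added reporter sequences, and summarised with featureCounts 1.5.1. DESeq2 1.14.1 was the authors' tool for counts. How the TPM were made, and whether strand was used, is not given in the sources used here. TPM keep no depth, and the reporter transcripts were not analysed here. Replicate numbers only name cells.

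From this table, cells were grouped by the labels' fluorescence. Genes that averaged 10 TPM or more in the 37 members were compared by the log2 ratio of group means plus 1 TPM, plate by plate. A call was a fold of at least 1 (log2) in the same direction on both plates. No count model suits TPM and no test was made. Named genes were Drd1, the D1 MSN markers, the genes next to Drd1, per direction the 12 genes with the largest fold on the lesser plate that met the share and mean-log limits, called or abundant list members, and the 5 genes per direction closest to the fluorescence by Spearman's rho. The members and lists were chosen with earlier results of these data known. Positions came from GENCODE M21 (GRCm38), where 24024 of 25160 names were found. Calculations used Python 3.11.15, numpy 2.4.6, pandas 2.3.3 and scipy 1.17.1, and figures matplotlib 3.10.9. The code was checked on the deposited values, with bright and dim labels shuffled within plates and some genes raised by a known factor. That factor was far above the limit for a call, so the check says little about folds near it. A small hand-made example was also run. Alternatives changed the pseudocount, the mean, the scaling, the filters, the fold and the cells kept.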

Additional observations from a re-analysis of the deposited data

Results flagged for a closer look

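In groups of 8 to 10 cells, 28 combinations of group and measure were searched for a single cell far from the rest, of which chance gives about 1 in 20. The bright well C07 of FACS051_5 had a 525/50 fluorescence of 95, where the next cell had 49. The dim well A01 of FACS086_4 had 2806 genes above 1 TPM, where the next cell had 5239. The bright well B12 of FACS051_5 had listed genes summing to 675682 TPM, where the next cell had 813914. Without wells B12 and A01, the mean difference in genes found was 972.75 against 1004.5.

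Reporter signal also appeared in Drd1 cells that were not compared. Their 610/20 fluorescence was 1001 in well D04 of FACS051_5, 1787 in well B02 of FACS086_4 and 3013 in well A05 of FACS086_9, all above the highest Drd2 cell at 261. Well D04 had 2.03 TPM of Drd1, 15951 TPM of astrocyte markers and 903 TPM of projection neuron genes, and well B02 had 648 genes above 1 TPM.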

How the results depend on the processing

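Values were recomputed for the genes named for their folds, the D1 markers and the genes next to Drd1, and 0 called values changed direction. This was set in part by the choice, since the genes named for their folds had to share a direction on both plates and in the mean of log2 values. Called members of the other lists were not recomputed, and Ier5, called lower, was above 0 on FACS051_5 as a difference of mean log2 values. The sign changed in 9 of 407 values of single genes (5 of them on a plate taken alone) and in 19 of 209 list medians (9 of them so). The 407 values include those of called genes. All 9 changes fell in 7 genes that were not called, so the share among uncalled genes was larger. The mean Drd1 fold of 0.19 moved to 0.40 as a difference of mean log2 values and to 0.34 without wells B12 of FACS051_5 and A01 of FACS086_4, and otherwise stayed between 0.08 and 0.30. The difference in genes found stayed between 306.5 and 1702.5, its values on the single plates, but for genes above 10 TPM it was 1129 on FACS051_5 and 5.5 on FACS086_4 (mean 567.25). That of the green channel stayed between 4.5 and 12. The counts of genes higher and lower on both plates (520 and 489) became 259 and 249 with a pseudocount of 10 TPM, 1175 and 828 with a mean of at least 1 TPM, 1197 and 838 with no filter, and 193 and 150 at a log2 fold of 2. With the difference of mean log2 values they were 580 and 132. Its median over genes was 0.54 and 0.05 on the plates, and with that median taken off they were 334 and 256. In genes above 1 TPM in at least 50% of cells they were 116 and 105, and in genes of at least 100 TPM 14 and 24. Subtracting the median, the last 2 filters and leaving out the wells were chosen after seeing the data. Opposite genes numbered 1042, but 30 (at least 100 TPM), 337 (log2 fold of 2), 513 (pseudocount of 10 TPM), 1958 (mean of at least 1 TPM) and 1991 (no filter). In all settings run for the lists, 0 of them had a median past 1 on both plates. Of 407 recomputed values of single genes, 278 moved by less than the SD over plates, and 129 by more. The 278 include 74 values of a plate taken alone, which lie within this SD by construction. All 129 were therefore among the other 333 values.

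No paired analysis was possible because replicate numbers follow accession order and no result came from a test. The cells come from 2 plates with no animal named, and most genes were absent from many cells, so small differences could not be resolved, and with no depth in TPM no limit of detection can be given.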
